A study of Mus musculus with 7 samples.

Results

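Chromatin accessibility was described at the genes of the Activin and TGF-beta receptors (Acvr1b, Acvr1c, Tgfbr1, Acvr2a, Acvr2b and Tgfbr2), the Smad corepressors Ski, Skil and Tgif1, and Pmepa1, a membrane protein that restrains the pathway. A site listed in the table of accessible regions was taken for a gene when its midpoint lay within 50 kb of a curated RefSeq transcription start site (TSS) of that gene in mm10. This gave 54 of the 75880 listed sites. ATAC-seq, in which the transposase Tn5 cuts and tags open chromatin, was carried out on epiblast-like cells (EpiLCs), the in vitro counterpart of the early post-implantation epiblast, derived from mouse embryonic stem cells of strain 129/Sv//Ev. Wildtype (WT) cells of clone CCE were compared with Smad2/3 double-knockout (DKO) cells of clone KT15.1F6, in which Smad3 exon 1 and its promoter had been deleted by CRISPR in a Smad2-/- line. Both genotypes were collected at day 2, after 48 h in 20 ng/ml Activin A and 12 ng/ml Fgf2, with 3 differentiations per genotype and 1 control library made from genomic DNA cut by Tn5. Each genotype is 1 clone, so clone and genotype cannot be told apart.

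Activin and Nodal bind type II receptors, which phosphorylate type I receptors. The activated type I receptors phosphorylate Smad2 and Smad3, which enter the nucleus with Smad4 and bind DNA beside partners such as FoxH1. Ski and Skil (SnoN) bind these Smads and recruit histone deacetylase complexes, Tgif1 is a homeodomain corepressor of the same complexes, and Pmepa1 sequesters receptor-activated Smads. In the epiblast the pathway patterns the germ layers and the anterior-posterior axis, and several of its inhibitors are themselves targets of Smad2/3.

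The strongest differences at these genes lay in introns and intergenic sequence and not at promoters. In DKO cells 3 sites in intron 1 of Pmepa1 and 1 site in intron 1 of Ski retained between 17.2% and 28.9% of the WT reads, while the promoters of both genes stayed within 1.5-fold. Acvr1c was the only receptor gene with sites lower by over 1.5-fold. None of the 9 sites at the type II receptor genes passed that fold in either direction, beside 16.0% of all listed sites that were lower and 8.51% that were higher, and 9 sites are too few to be set apart from these shares. The values are concentrations, the log2 of the mean normalized reads in a site over the libraries of a genotype, and a difference is the DKO concentration minus the WT concentration, so that -1 means 50% of the WT reads. A site was called lower or higher when the difference passed 1.5-fold (0.585 on the log2 scale). Only genotype means are used here, since the table lists no single libraries. Library depth, the spread between differentiations and any error are therefore unknown, no test was made, and every difference below is a description of the means. Concentrations also depend on the width of a site, which ranged from 170 to 1840 bases here, so levels were compared between genotypes and not between sites.

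The sequences of 9 sites are shown because they carry the comparison that follows. They comprise the 4 sites outside exons with the largest differences among those with a concentration of at least 5, then the 3 weaker sites in intron 1 of Pmepa1, which were added after their values were seen, and 2 sites that hardly differed. Each is at most 300 bases of mm10 around the midpoint of the site, on the plus strand, 5′ to 3′. Capitals mark exact matches to the Smad box CAGAC or to the FoxH1 sequence TGTGGATT on either strand, so that GTCTG and AATCCACA are also in capitals.
Pmepa1 intron 1, difference -2.54 (chr2:173246985-173247284): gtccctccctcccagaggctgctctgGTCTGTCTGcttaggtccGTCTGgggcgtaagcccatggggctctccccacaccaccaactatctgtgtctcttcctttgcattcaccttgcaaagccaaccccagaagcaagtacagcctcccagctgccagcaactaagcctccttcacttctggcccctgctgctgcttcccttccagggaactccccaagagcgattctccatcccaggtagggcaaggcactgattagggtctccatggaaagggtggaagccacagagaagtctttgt
Pmepa1 intron 1, difference -1.86 (chr2:173264775-173265074): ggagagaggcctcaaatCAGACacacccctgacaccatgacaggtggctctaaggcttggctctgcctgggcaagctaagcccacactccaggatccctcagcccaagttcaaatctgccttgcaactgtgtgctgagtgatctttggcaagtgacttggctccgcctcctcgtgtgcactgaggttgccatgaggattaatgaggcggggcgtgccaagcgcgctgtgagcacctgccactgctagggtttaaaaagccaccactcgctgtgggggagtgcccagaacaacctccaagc
Pmepa1 intron 1, difference -1.79 (chr2:173238505-173238804): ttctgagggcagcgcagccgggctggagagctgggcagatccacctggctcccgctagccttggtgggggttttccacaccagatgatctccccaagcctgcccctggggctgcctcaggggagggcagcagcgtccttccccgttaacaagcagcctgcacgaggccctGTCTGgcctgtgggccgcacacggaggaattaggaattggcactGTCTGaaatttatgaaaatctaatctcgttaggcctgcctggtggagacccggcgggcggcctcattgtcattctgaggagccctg
Ski intron 1, difference -2.07 (chr4:155189740-155190039): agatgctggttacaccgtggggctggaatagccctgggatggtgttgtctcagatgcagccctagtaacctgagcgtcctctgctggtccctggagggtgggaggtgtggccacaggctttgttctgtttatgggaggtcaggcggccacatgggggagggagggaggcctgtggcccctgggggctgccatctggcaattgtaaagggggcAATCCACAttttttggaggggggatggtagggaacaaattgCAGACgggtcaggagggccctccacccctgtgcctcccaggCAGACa
Pmepa1 upstream, difference -0.79 (chr2:173300670-173300969): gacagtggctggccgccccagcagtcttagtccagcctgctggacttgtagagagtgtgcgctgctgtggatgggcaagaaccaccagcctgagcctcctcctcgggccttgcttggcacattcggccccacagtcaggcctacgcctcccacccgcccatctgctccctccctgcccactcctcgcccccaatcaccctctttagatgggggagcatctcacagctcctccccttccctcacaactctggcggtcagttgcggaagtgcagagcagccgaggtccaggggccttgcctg
Skil upstream, difference -0.78 (chr3:31089505-31089804): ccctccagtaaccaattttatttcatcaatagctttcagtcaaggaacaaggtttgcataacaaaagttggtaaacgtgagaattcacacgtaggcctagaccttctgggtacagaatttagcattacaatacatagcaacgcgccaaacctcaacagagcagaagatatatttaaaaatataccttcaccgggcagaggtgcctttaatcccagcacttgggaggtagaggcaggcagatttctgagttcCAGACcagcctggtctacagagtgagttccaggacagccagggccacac
Tgif1 upstream, difference 0.45 (chr17:70873355-70873654): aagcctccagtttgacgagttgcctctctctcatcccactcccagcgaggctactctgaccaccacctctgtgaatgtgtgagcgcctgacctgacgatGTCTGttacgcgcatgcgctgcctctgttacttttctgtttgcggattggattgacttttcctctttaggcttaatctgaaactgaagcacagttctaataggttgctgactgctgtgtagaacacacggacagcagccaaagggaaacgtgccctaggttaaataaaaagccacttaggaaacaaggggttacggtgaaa
Tgif1 upstream, difference -0.03 (chr17:70872370-70872669): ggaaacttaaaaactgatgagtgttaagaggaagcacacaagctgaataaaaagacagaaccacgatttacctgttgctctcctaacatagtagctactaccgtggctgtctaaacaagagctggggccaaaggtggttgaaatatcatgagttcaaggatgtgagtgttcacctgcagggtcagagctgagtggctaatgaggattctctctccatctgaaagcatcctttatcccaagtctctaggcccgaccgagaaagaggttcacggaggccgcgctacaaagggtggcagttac
Acvr1b upstream, difference -0.08 (chr15:101145545-101145844): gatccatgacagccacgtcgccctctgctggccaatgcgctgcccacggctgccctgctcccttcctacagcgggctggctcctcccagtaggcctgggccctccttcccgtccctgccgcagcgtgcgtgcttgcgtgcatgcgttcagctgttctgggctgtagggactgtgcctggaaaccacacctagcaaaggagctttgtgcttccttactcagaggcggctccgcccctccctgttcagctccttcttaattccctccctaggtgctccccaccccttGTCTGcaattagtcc

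In these windows the most strongly reduced Pmepa1 site held 3 matches to the Smad box, of which 2 overlap and 2 lie in repeat-masked sequence. The Ski intron 1 site held 2 Smad boxes and a FoxH1 match, the only FoxH1 match among the 54 sites. The Skil site held 1 Smad box, which lies in masked sequence like 68.0% of that window, and the upstream Pmepa1 site held none. A Smad box was also present at the Acvr1b site that hardly differed and at the Tgif1 site that was higher in DKO. All 8 motifs searched are given with their background further on.

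Pmepa1 (chr2:173224465-173276533, minus strand) had 8 sites, of which 4 were lower in DKO and 1 was higher. Its largest difference was in intron 1, 29.4 kb downstream of the TSS (chr2:173246910-173247360), where the concentration was 4.90 in WT and 2.36 in DKO, a difference of -2.54. The second lay 11.6 kb downstream in the same intron (chr2:173264790-173265060), at 4.55 in WT and 2.69 in DKO (-1.86). At the third, 37.9 kb downstream (chr2:173238530-173238780), the values were 4.77 and 2.98 (-1.79). DKO cells thus had 17.2%, 27.5% and 28.9% of the WT reads at the 3 intronic sites, which corresponds to 5.13, 6.45 and 7.89 mean normalized reads in DKO against 29.9, 23.4 and 27.3 in WT. These DKO means are low, and with 5 reads added to each mean the differences shrank to -1.78, -1.31 and -1.325.

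The other lower site was intergenic, 24.3 kb upstream (chr2:173300670-173300970), at 5.35 in WT and 4.56 in DKO (-0.79). The Pmepa1 promoter, whose site covers exon 1, was at 6.93 in WT and 6.59 in DKO (-0.34), or 79.0% of the WT reads. A site in intron 2 at 46.7 kb was similarly placed, at 6.67 and 6.37 (-0.30), and an upstream site at 14.6 kb was at 4.85 and 4.97 (0.12). The last site, 28.7 kb upstream, was weak in both genotypes at 2.64 in WT and 3.24 in DKO (0.60) and is the one called higher. The 3 lower sites in intron 1 thus followed one another with no listed site between them. The promoter and the intron 2 site on either side of them stayed within 1.5-fold. The lower site at 24.3 kb upstream lay apart, beyond the promoter and the site at 14.6 kb. For 2 of the 3 intronic sites and the intron 2 site the nearest TSS is that of Zbp1, the neighbouring gene beyond the 3′ end of Pmepa1.

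**Figure D1:**
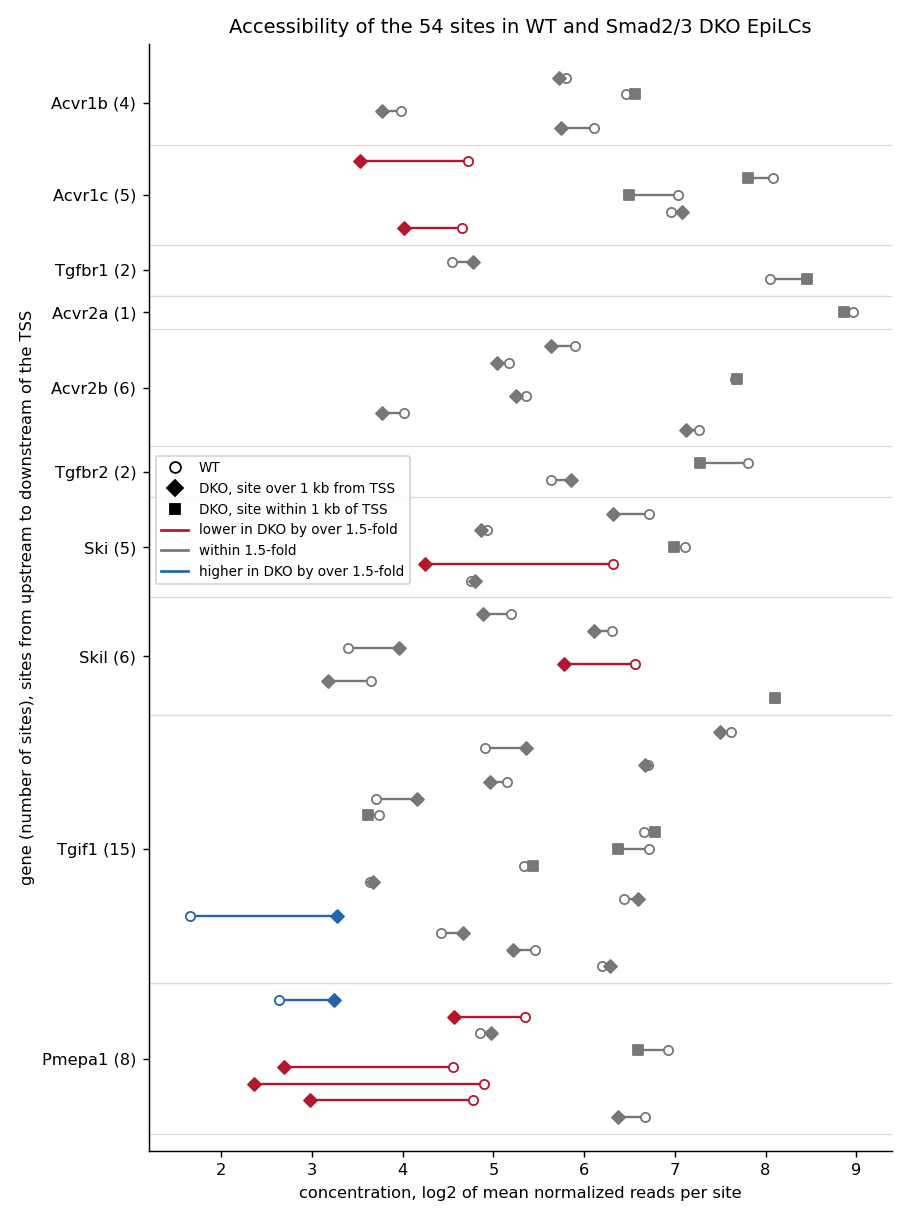
Concentration (log2 of mean normalized reads, x axis) of each of the 54 sites in WT (open circles) and DKO (filled symbols, squares for sites within 1 kb of a TSS of the gene), grouped by gene on the y axis and ordered from upstream to downstream. Red lines join the 8 sites lower in DKO by over 1.5-fold, 4 of them at Pmepa1, and blue lines the 2 that were higher, both under a concentration of 4 in both genotypes.

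Ski (chr4:155154075-155222535, minus strand), the founding member of this corepressor family, had 5 sites and 1 large difference. In intron 1, 32.6 kb downstream of the TSS (chr4:155189670-155190110), the concentration was 6.32 in WT and 4.25 in DKO (-2.07), which leaves 23.8% of the WT reads. Among all sites with a concentration of at least 4 in the higher genotype, 0.633% were as low or lower. That share makes no allowance for naming the site by its difference. Another site in the same intron, 48.9 kb downstream, was at 4.75 and 4.80 (0.05). The Ski promoter was at 7.11 in WT and 6.99 in DKO (-0.12), and the upstream sites at 13.0 and 27.3 kb differed by -0.07 and -0.39. The site at 27.3 kb lies 121 bases from the TSS of Faap20. At Ski, 1 of the 5 sites thus passed the fold.

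Skil (chr3:31095058-31122923, plus strand) encodes SnoN, the relative of Ski that is degraded on Activin and TGF-beta signalling and is also a transcriptional target of it. Its promoter site had the same concentration in both genotypes, 8.09 in WT and 8.10 in DKO (0.01). A site of 1410 bases lying 5.4 kb upstream (chr3:31088950-31090360) was at 6.56 in WT and 5.78 in DKO (-0.78), or 58.2% of the WT reads. The remaining 4 upstream sites differed by between -0.47 and 0.56, and those at both ends of that range had concentrations under 4.

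Tgif1 (chromosome 17, minus strand), the homeodomain corepressor, had the most sites, 15 around 5 TSSs, and none with a concentration of at least 4 passed 1.5-fold. Its 4 promoter sites differed by between -0.35 and 0.12. The largest difference among sites with a concentration of at least 4 was 0.45, at chr17:70873200-70873810, 20.0 kb upstream, where WT was at 4.91 and DKO at 5.36. The same difference, 0.45, was found at a second upstream site, 11.2 kb from the TSS, at 3.71 and 4.16. One weak site 17.7 kb downstream was at 1.65 in WT and 3.27 in DKO (1.62), a mean of 3.14 against 9.65 normalized reads. Over the 15 sites the median difference was 0.08.

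**Figure D2:**
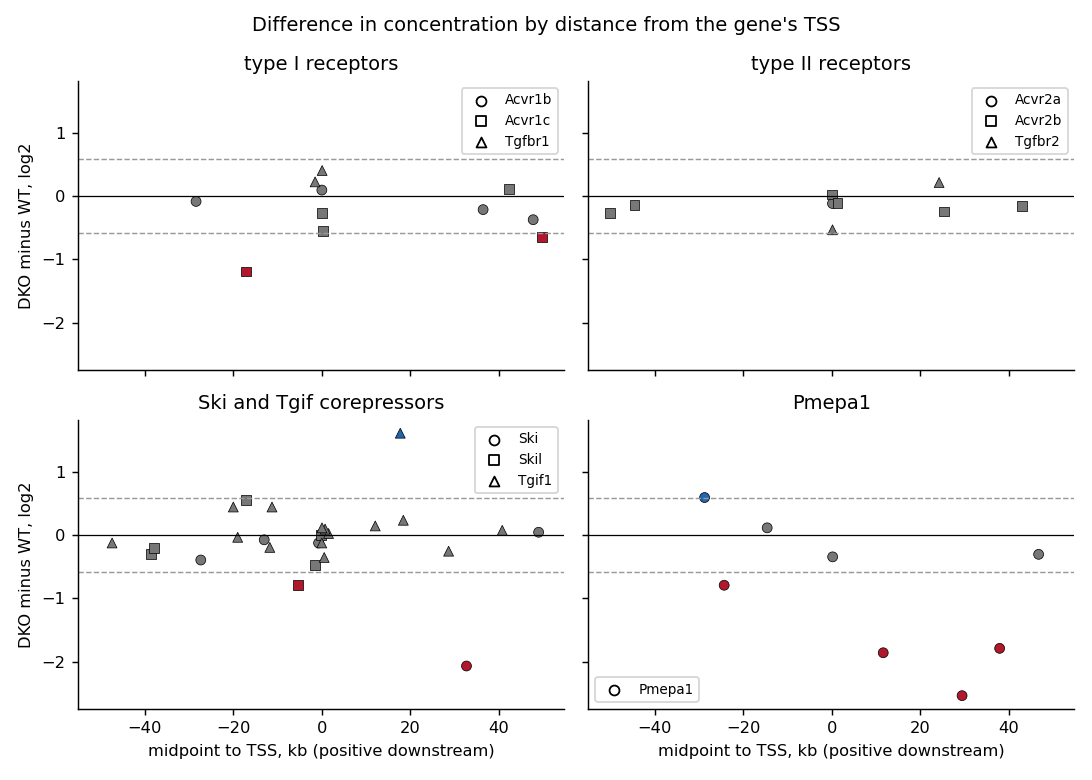
Difference in concentration (DKO minus WT, log2, y axis) of every site against the distance of its midpoint from the nearest TSS of its gene (kb, x axis, positive downstream), in 4 panels by role. Points are red where lower and blue where higher by over 1.5-fold (dashed lines), marker shapes give the gene, and no point within 1 kb of a TSS lies outside the dashed lines.

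Among the type I receptors, Acvr1c (ALK7), which mediates Nodal signalling beside Acvr1b, had the lowest values. A site 17.1 kb upstream of its distal TSS (chr2:58374740-58375020, intergenic) was at 4.72 in WT and 3.53 in DKO (-1.19), or 43.8% of the WT reads. The other lower site covered part of the untranslated region in exon 9 (chr2:58274850-58275220), with 4.65 in WT and 4.01 in DKO (-0.64), close to the call threshold. Its nearest TSS is that of Gm13544, 1744 bases away. Both promoters of Acvr1c were below WT without reaching 1.5-fold: the site at the upstream TSS (58357758) was at 8.08 and 7.81 (-0.27) and the one at the internal TSS (58324807) at 7.04 and 6.49 (-0.55). The remaining site, in intron 6, was at 6.96 in WT and 7.08 in DKO (0.12).

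Acvr1b (ALK4), the main type I receptor for Activin and Nodal, had 4 sites, with differences from -0.37 to 0.10. Its promoter was at 6.46 in WT and 6.56 in DKO. The value of -0.37 belonged to a site 47.7 kb downstream (chr15:101221550-101221990), at 6.11 and 5.74, which lies in the gene A330009N23Rik. The nearest TSS to this site is that of AU021063, 523 bases away. Tgfbr1 (ALK5), the type I receptor for TGF-beta, had 2 sites, both higher in DKO by less than 1.5-fold. Its promoter (chr4:47352690-47353900) was at 8.05 in WT and 8.46 in DKO (0.41), the largest positive value at any promoter of the 10 genes, and a site 1.51 kb upstream was at 4.54 and 4.77 (0.23). The promoters of all 3 type I receptor genes stayed within 1.5-fold.

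At the type II receptors no site passed 1.5-fold. Acvr2a, a receptor for Activin and Nodal, had only its promoter site (chr2:48813270-48815110), at 8.97 in WT and 8.87 in DKO (-0.10). Acvr2b, which binds the same ligands, had 6 sites with differences from -0.26 to 0.03. Its promoter was at 7.66 and 7.69 (0.03), and its most different site (chr9:119352090-119352360), 50.0 kb upstream and nearest to the TSS of Xylb, was at 5.90 and 5.64 (-0.26). The Acvr2b sites at 44.5 kb upstream and 42.9 kb downstream lie 274 and 105 bases from the TSSs of Xylb and Exog. Tgfbr2, which binds TGF-beta ligands, had a promoter site at 7.81 in WT and 7.28 in DKO (-0.53, chr9:116174370-116176030), or 69.3% of the WT reads. Its other site, in intron 2, was at 5.63 and 5.85 (0.22). At the promoters of Acvr1c and Tgfbr2 the differences of -0.55 and -0.53 were the lowest of the 14 promoter sites.

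Counted together, 8 of the 54 sites (14.8%) were lower in DKO by over 1.5-fold, beside 16.0% of all listed sites, and 2 (3.70%) were higher, beside 8.51% of all listed sites. The median difference was -0.12 over the 54 sites and -0.08 over all sites. The genes as a set therefore lay near the background, and without Pmepa1 only 4 of 46 sites were lower and 1 was higher. Restricting the count to sites with a concentration of at least 4 in the higher genotype, a mean of 16 normalized reads, left 47 sites, of which 8 (17.0%) were lower and 0 higher, beside 14.7% and 6.87% of the 65253 such sites in the table. Weak sites passed the fold more often over the whole table, with 23.7% lower and 18.6% higher among the 10627 sites under 4.

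By role, the type I receptors had 2 of 11 sites lower and the type II receptors 0 of 9, with medians of -0.21 and -0.13. These are too few sites for either count to be set apart from the 16.0% of all listed sites. The corepressors Ski, Skil and Tgif1 had 2 of 26 lower and 1 higher, with a median of -0.05, and Pmepa1 had 4 of 8 lower with a median of -0.56. Of the 11409 genes with at least 5 sites in such a window, 234 (2.05%) had at least 50% of their sites lower by over 1.5-fold, as Pmepa1 had. A median as low as that of Pmepa1 was found at 1.63% of these genes, and one as low as that of Acvr1c, -0.55, at 1.78%. The corresponding shares were 15.7% for Skil, 30.3% for Acvr2b, 33.3% for Ski and 70.6% for Tgif1. The cut of 50% was the value of Pmepa1 itself, which had the largest lower share and the lowest median of the genes described. The 2.05%, 1.63% and 1.78% make no allowance for picking the lowest genes, so they place these genes in the table and do not test them.

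None of the 14 sites within 1 kb of a TSS of its own gene passed 1.5-fold, with differences from -0.55 to 0.41, and neither did any of the 4 sites between 1 and 5 kb. All 8 lower sites and both higher sites lay over 5 kb from the TSS of their gene. The whole table shows the same contrast, so this is no feature of these genes alone: 4.17% of the 15001 sites within 1 kb of any TSS were lower and 3.69% higher, against 19.2% lower and 9.8% higher of the 54553 sites over 5 kb from every TSS. Measured against the TSSs of all genes, 0 of 19 member sites within 1 kb passed the fold, and 7 of 28 (25.0%) over 5 kb were lower and 2 (7.14%) higher. By the place of the midpoint, lower sites made up 4 of the 16 intronic, 3 of the 25 intergenic and 1 of the 13 exonic sites, beside 16.0% of all listed sites. The intronic and intergenic classes each include sites within 1 kb of a TSS. Shares of all listed sites were not computed for these classes, so no difference between them is read from the counts.

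The lower values at Pmepa1 and Acvr1c did not extend over their surroundings. Sites 50 to 500 kb from the TSS had a median difference of -0.12 around Pmepa1, with 5 of 42 lower, and -0.12 around Acvr1c, with 3 of 37 lower. Around Ski the flanking median was -0.11, with 4 of 47 lower. Over the 10 genes the flanking medians ran from -0.23 at Acvr2b to -0.06 at Skil. The choice of 50 kb admitted the lower Acvr1c site in exon 9 only narrowly, at 49.8 kb. The nearest site left out, 50.3 kb from the TSS of Acvr1b, differed by -0.06, and the next, 51.0 kb from that of Skil, by 0.47.

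**Figure D3:**
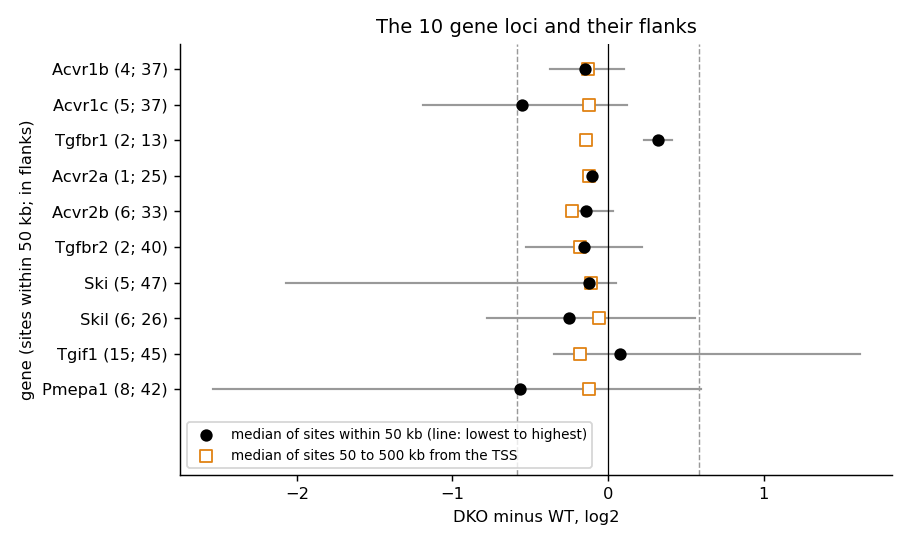
Difference in concentration (DKO minus WT, log2, x axis) at each of the 10 genes (y axis, with the number of sites within 50 kb and in the flanks). Black circles are medians of sites within 50 kb, grey lines run from the lowest to the highest site and are not errors, and orange squares are medians of sites 50 to 500 kb away. Pmepa1 and Acvr1c have medians of -0.56 and -0.55 beside flanking medians of -0.12.

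Matches to 8 short motifs were counted on both strands in the 300 bases around each midpoint. The Smad box CAGAC was found in 32 of the 54 sites (59.3%) and in 52.5% of all listed sites, and in 5 of the 8 lower sites. FoxH1 (TGTGGATT) was found at the Ski intron 1 site only (1.85%), beside 1.08% of all sites. The GC-rich Smad sequence GGCGC was present in 55.6% against 31.5% of all sites and 20.6% of sites over 5 kb from every TSS. The median GC content was 57.7% against 51.0%. Sites within 1 kb of any TSS made up 19 of the 54 and 15001 of the 75880, and the part of this in the motif share was not tested. Only 2 of the 8 lower sites contained GGCGC. The Tgif sequence TGACAG was found in 22.2% against 18.1%, the Otx2 sequence GGATTA in 5.56% against 8.71%, and the Tead sequence GGAATG in 9.26% against 17.6%. Neither the palindrome GTCTAGAC nor the octamer ATGCAAAT occurred in the 54 windows, beside 0.224% and 3.15% of all sites. The palindrome does not contain the Smad box as spelled here, whereas the FoxH1 and Otx2 sequences share GGATT, so a stretch of bases may count for both. Because CAGAC is present in more than 50% of all sites, its presence at the Ski and Pmepa1 sites does not set them apart. At least 3 matches, as in the most reduced Pmepa1 window, occurred in 5.14% of all sites and in 5 of the 54, of which the other 4 stayed within 1.5-fold with differences from -0.30 to 0.10.

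Other genes of the pathway, taken from 6 lists with 36 genes, were counted in the same way. Over all listed sites 16.0% were lower and 8.51% higher, and over 5 kb from every TSS 19.2% and 9.8%. No list was tested against these shares. Feedback inhibitors of the pathway had 10 of 45 sites (22.2%) lower and 0 higher (median -0.21). Of these, 5 fell in the windows of both Lefty1 and Lefty2, and Smad7, an inhibitory Smad that blocks the type I receptors, had 2 of 6 lower. Receptors for BMP ligands, listed together with Amhr2, had 11 of 45 (24.4%) lower and 1 higher (median -0.23). Amhr2, the receptor for anti-Mullerian hormone, supplied 7 of these sites and 2 of the lower ones, neither with a concentration of at least 4. Of the lower sites, 7 lay around Bmpr1b, which had 16 sites with differences from -1.93 to 0.05. In that list 2 sites also belong to Acvr1b, whose neighbour is Acvrl1. Ligands had 4 of 54 (7.41%) lower and 4 higher (median 0.03), and coreceptors 1 of 14 (7.14%) lower and 2 higher (median -0.08). The corepressors and partners of Ski outside the 10 genes (Tgif2, Skor1, Skor2, Ncor1, Sin3a and Hdac1) had 2 of 31 (6.45%) lower and 3 higher (median 0.07). The effectors had 4 of 19 (21.1%) lower and 1 higher (median -0.04). Of these, 2 lower sites and the higher one belonged to Smad3, which was deleted in part.

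**Figure D4:**
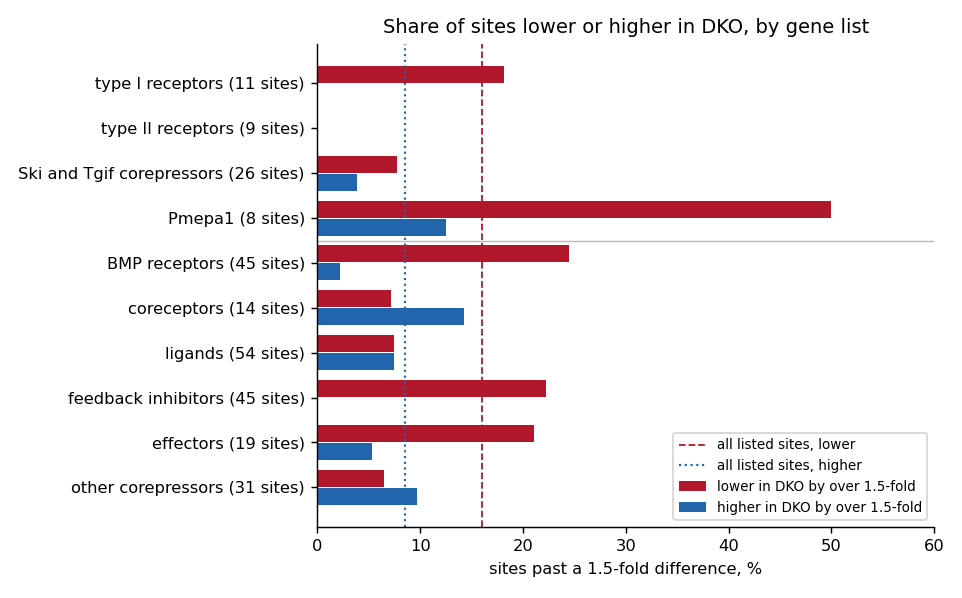
Share of sites (x axis, %) lower (red bars) or higher (blue bars) in DKO by over 1.5-fold in the 4 groups of the 10 genes (above the grey line) and in the 6 lists of other pathway genes, with the number of sites in parentheses. Vertical lines give the shares over all 75880 sites, 16.0% lower (dashed) and 8.51% higher (dotted). Pmepa1 has 50.0% of its 8 sites lower, and the type II receptors have no bar.

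The labels were checked at Smad3 and at marker promoters. The site over the Smad3 promoter was at 5.42 in WT and -0.10 in DKO, the lowest value listed for DKO, which 164 sites share, among them a site near Lefty1 and Lefty2. At Smad2, the other gene knocked out, the 2 sites differed by -0.07 and 0.47, so the Smad2 lesion is not shown by these values. Of 5 marker genes of EpiLCs, 4 had a promoter site and similar concentrations in both genotypes (Pou5f1 7.71 and 7.72, Fgf5 6.63 and 6.86, Dnmt3b 5.66 and 5.63, Pou3f1 7.18 and 7.23), whereas Otx2 had no site within 1 kb of its TSS. All 9 marker genes of primitive endoderm, trophoblast and fibroblasts also had promoter sites, at 4.08 to 8.50 in WT and 3.86 to 8.52 in DKO. Of these, Elf5 of trophoblast (4.55 and 3.86, -0.69) and Twist2 of fibroblasts (4.08 and 4.68, 0.60) passed 1.5-fold, in opposite directions, and Col1a1 was at 5.57 and 5.03 (-0.54). Accessible promoters were thus found for every cell type, so promoter accessibility does not distinguish these cell types and their part in the differences was not tested. Accessibility of a mixed culture is an average, and fewer cells with an open site cannot be told apart from lower accessibility in every cell.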

How the data were processed

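ATAC-seq libraries were made by the authors from 75000 cells per sample in 2 technical replicates. Reads were aligned by the authors to mm10 with Bowtie2, filtered with SAMtools, and sites were called with DANPOS2 against a genomic DNA control (100 ng) and compared with DiffBind. The deposited table lists 75880 sites, each with a log2 concentration averaged per genotype by the authors' software, whose normalization and version are not given in the sources used here. It also holds a concentration over both genotypes and the authors' own fold, p-value and FDR, which were not used. Coordinates are given as listed, with the counting base of the starts not stated.

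The difference of the 2 genotype means was computed for every site with Python 3.11.15, pandas 2.3.3 and numpy 2.4.6. Distances ran from the midpoint to 31647 curated RefSeq TSSs of 26180 genes (GRCm38.p6, the same assembly as mm10). Scripts were tested on simulated data. Members, lists and motifs were chosen with earlier results of these data known. A gene of the corepressor list is not reported here and was left out of its counts. Named sites were those past 1.5-fold with a concentration of at least 4 or, where a gene had none, its most different such site. Alternatives comprised other windows, TSS sets, filters, scalings, 5 added reads and a 2-fold threshold.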

Additional observations from a re-analysis of the deposited data

How the results depend on the processing

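No paired analysis was possible because the table holds a mean per genotype only, and for the same reason no replicate could be left out. Within 25 kb of a TSS there were 33 sites, with 4 lower and 1 higher, and within 100 kb 103 sites, with 15 lower and 3 higher. Requiring the nearest TSS to be that of the gene left 32 sites, with 5 lower. A 2-fold threshold gave 5 lower and 1 higher. No site was higher (0) at a concentration of at least 4, and 1 with 5 reads added to each mean. Without Pmepa1, an alternative chosen after seeing the data, 4 sites were lower and 1 higher. Predicted TSSs and sites overlapping the window in any part gave the same 54 sites. The median stayed between -0.13 and -0.03 under every alternative. Of the 8 lower sites, 7 stayed past 1.5-fold when differences were centred on the median of all sites and 7 with 5 reads added, the exception in both being the Acvr1c exon 9 site (-0.56 and -0.51). The sizes and their order did change with 5 reads added. The Ski intron 1 site (-1.82) then had the largest difference, ahead of the Pmepa1 intron 1 sites (-1.78, -1.325 and -1.31). In 500-base windows the Smad box was found in 75.9% of the 54 sites and FoxH1 in 3.70%.

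Without values per library, depth and the spread between differentiations could not be weighed. Differences at sites of few reads are the least precise, such as the Pmepa1 site with a mean of 5.13 normalized reads in DKO.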
